A study of Homo sapiens with 28 samples.

Results

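The mRNAs described here were chosen to represent proteins that copy DNA in S phase and separate chromosomes in mitosis. They were taken by symbol, from prefixes that name the subunits of the replication and segregation machinery (KIF, CENP, SMC, NCAP, MCM, POLA, POLD, POLE, RFC, ORC, CDK, PCNA and RRM, most followed by a digit). Of the 2568 transcripts in the authors' deposited table of RNA degradation rate constants, 41 matched, and the symbols of all 41 were found in the RefSeq gene list as protein-coding genes. The prefixes brought in 8 kinesins, 8 MCM, 7 CDK, 4 CENP, 4 condensin NCAP, 4 DNA polymerase, 2 SMC, 2 RRM and 1 RFC transcript, with PCNA, and no ORC transcript was listed. By their known function 30 of these genes act in replication, in segregation or in the cell cycle that drives them. The other 11 were placed outside these roles by hand: CDK12, CDK16 and CDK18 act in transcription or outside the cell cycle, KIF1A, KIF1B, KIF1C, KIF3C and KIF7 carry cargo along microtubules or act in cilia, and MCM3AP, CDK5RAP2 and CDK5RAP3 encode proteins named for a binding partner. The division is not sharp, since CDK5RAP2 acts at the centrosome and MCM3AP binds MCM3.

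DNA replication starts when a ring of MCM proteins is loaded onto origins and activated, after which DNA polymerases held by the sliding clamp PCNA copy both strands. Cohesin (SMC1A) holds sister chromatids together, condensin (SMC4 and the NCAP proteins) compacts them, centromere proteins (CENP) build the kinetochore, and mitotic kinesins move chromosomes on the spindle. Many of these genes are transcribed in waves along the cell cycle, under E2F factors in late G1 and S phase and under other factors in G2 and M. An mRNA that is degraded quickly follows such a wave closely, and one that is degraded slowly smooths it.

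The cells were HEK293T, a human embryonic kidney line in wide use, given as wild type. They received 100 µM of 4-thiouridine (s4U) for 2 h, or none. Cells build s4U into new RNA, and a chemical treatment of the purified RNA makes it read as C, so that new RNA carries T-to-C mismatches. There were 3 conversion chemistries: iodoacetamide, OsO4 with NH3, and NaIO4 with trifluoroethylamine (TFEA) at pH 5.2. RNA was carried through each chemistry under drop-out conditions (DO) or improved handling (IH). Each of the 6 combinations had 2 libraries with s4U and 1 without, 12 groups in all, and the series' design text gives reduced loss of s4U RNA and of T-to-C reads as the aim of the improved protocols. The labelled libraries held 2129372 to 5813077 aligned reads and the unlabelled ones 1935777 to 9962345. Nothing in the labels says whether the libraries came from separate cultures, and the deposited table gives 1 rate constant per transcript, chemistry and handling, with no replicate values or errors.

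All rate constants, log2 changes and adjusted p-values below are the authors' own. A rate constant is an estimate of the first-order constant of RNA degradation, so within a handling a larger value stands for faster turnover. Its time unit is not stated. DO and IH name how RNA was handled in the chemistry, so a change between them is a change of the estimate. A log2 change compares IH with DO, and a transcript is said to have risen when its deposited log2 change was above 0 with a deposited adjusted p under 0.05. Values are given in the order iodoacetamide, OsO4 with NH3, NaIO4 with TFEA unless stated otherwise.

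The 41 members had larger degradation rate constants under IH than under DO in nearly every measurement, as did most transcripts of the table. Across the 3 chemistries the authors' deposited table held 106 values for the members, of which 103 had a log2 change above 0 and 3 below. Among all transcripts the log2 change was above 0 in 1463 of 1600, 2101 of 2262 and 2053 of 2209 in the authors' deposited table. The median constant of the members went from 0.0379 to 0.0976 with iodoacetamide, from 0.0374 to 0.107 with OsO4 and NH3, and from 0.0476 to 0.117 with NaIO4 and TFEA, all values of the authors' deposited table. With iodoacetamide 20 of 32 members rose (adjusted p under 0.05), beside 48.9% of all 1600 transcripts of that chemistry. With OsO4 and NH3 24 of 36 members rose, beside 48.1% of all 2262. With NaIO4 and TFEA 27 of 38 members rose, beside 52.6% of all 2209. At a deposited adjusted p under 0.01 the counts were 11 of 32, 14 of 36 and 20 of 38, beside 32.4%, 27.0% and 33.5% of all transcripts, so that with iodoacetamide the members' share, 34.4%, was near that of all. No member fell with an adjusted p under 0.05 in the authors' deposited table. Of all transcripts 23 (1.44%), 10 (0.44%) and 15 (0.68%) did, so few falls were present anywhere.

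Rate constants were larger under IH in most of the table, and the share of reads with T-to-C mismatches moved with the handling. Reads that carried a T-to-C mismatch made up 16.71% to 24.98% of the reads of the labelled DO libraries and 39.96% to 58.17% of the labelled IH libraries, against 3.28% to 5.17% and 2.41% to 3.07% of the unlabelled ones. Reads assigned to no gene, which the read totals include, also moved with the handling: they made up 32.7% to 41.5% of the reads of the DO libraries and 17.5% to 25.7% of those of the IH libraries, unlabelled ones included. The part of these differences in the change of any single mRNA was not tested. The median log2 change of the members was 1.43, 1.45 and 1.53, and that of all other transcripts 1.14, 1.18 and 1.16, in the authors' deposited table. The median of all transcripts, members included, was 1.14, 1.19 and 1.18, and that of the members was higher than it by 0.29, 0.26 and 0.35. Their position among all transcripts was near the middle under DO, where the median member exceeded 53.3%, 45.9% and 54.9% of the transcripts of its chemistry, and slightly higher under IH, at 58.6%, 54.0% and 57.6%. Of the members placed outside replication and segregation, 6 of 7, 6 of 9 and 7 of 10 rose, beside 14 of 25, 18 of 27 and 20 of 28 of those with such a role and 48.9%, 48.1% and 52.6% of all transcripts. With iodoacetamide the share among those with such a role, 56.0%, was close to that of all transcripts. The medians of members and of other transcripts are a description, and whether the members differ from other transcripts was not tested.

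**Figure D1:**
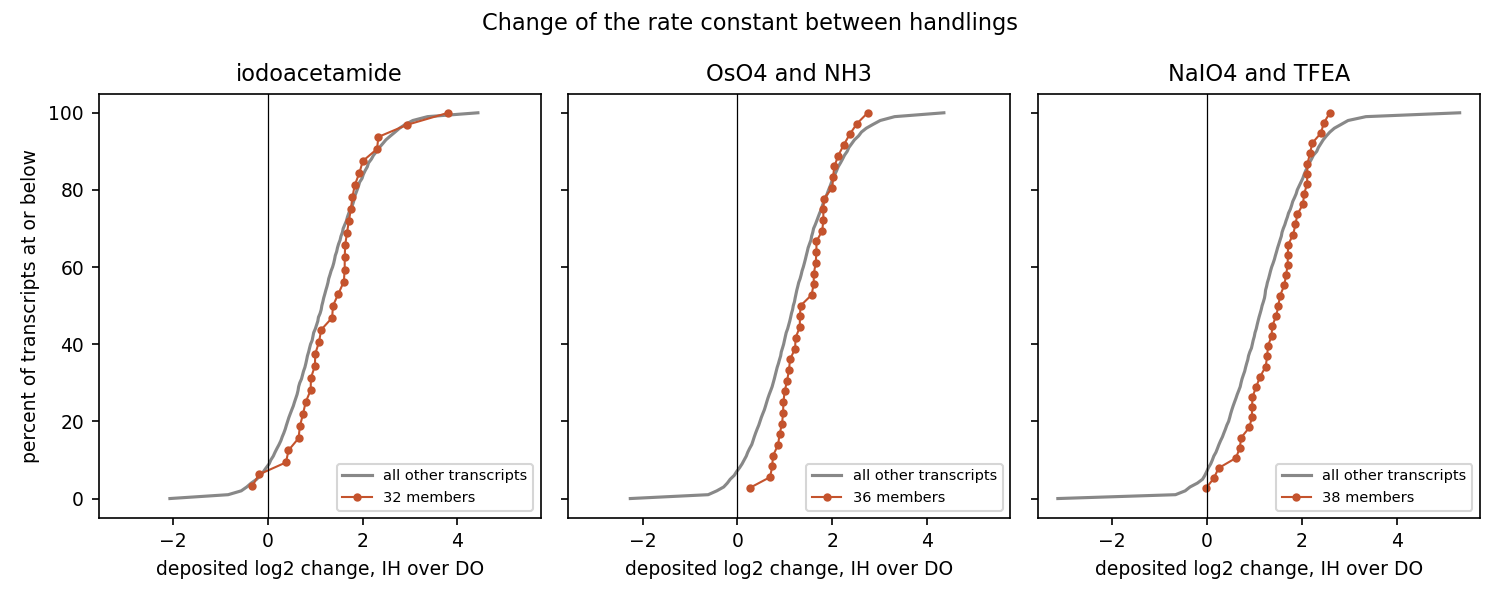
Cumulative distributions of the deposited log2 change of the rate constant, IH over DO (x axis, log2), as percent of transcripts at or below each value (y axis), for the members (red points) and all other transcripts (grey line) in each chemistry. The members' curves lie to the right of the grey line through their lower and middle parts, with medians of 1.43, 1.45 and 1.53 against 1.14, 1.18 and 1.16. Over much of the upper end they lie to its left. Nearly all points lie above 0.

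Of the 41 members, 30 were listed for all 3 chemistries, 5 for 2 and 6 for 1. Among the 30, 15 rose in all 3 chemistries, 2 in 2, 11 in 1 and 2 in none in the authors' deposited table, and the 1441 other transcripts listed for all 3 chemistries included 517 (35.9%) that rose in all 3. In 27 of the 30 every IH constant lay above every DO constant, as in 78.3% of the 1441 others, and the 3 exceptions were CDK2, CDK4 and CENPB. Across the 30 members Spearman's rho between pairs of chemistries was 0.76, 0.80 and 0.80 under DO and 0.84, 0.94 and 0.91 under IH (iodoacetamide with OsO4 and NH3, iodoacetamide with NaIO4 and TFEA, and the remaining pair). Across the 1441 others it was 0.90, 0.92 and 0.92 under DO and 0.92, 0.93 and 0.94 under IH. These correlations are across genes, which are not independent replicates, and differences between them were not tested. For the median member the highest of the 3 constants was 1.40 times the lowest under DO and 1.26 times under IH, and for the median other transcript 1.45 and 1.35 times.

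**Figure D2:**
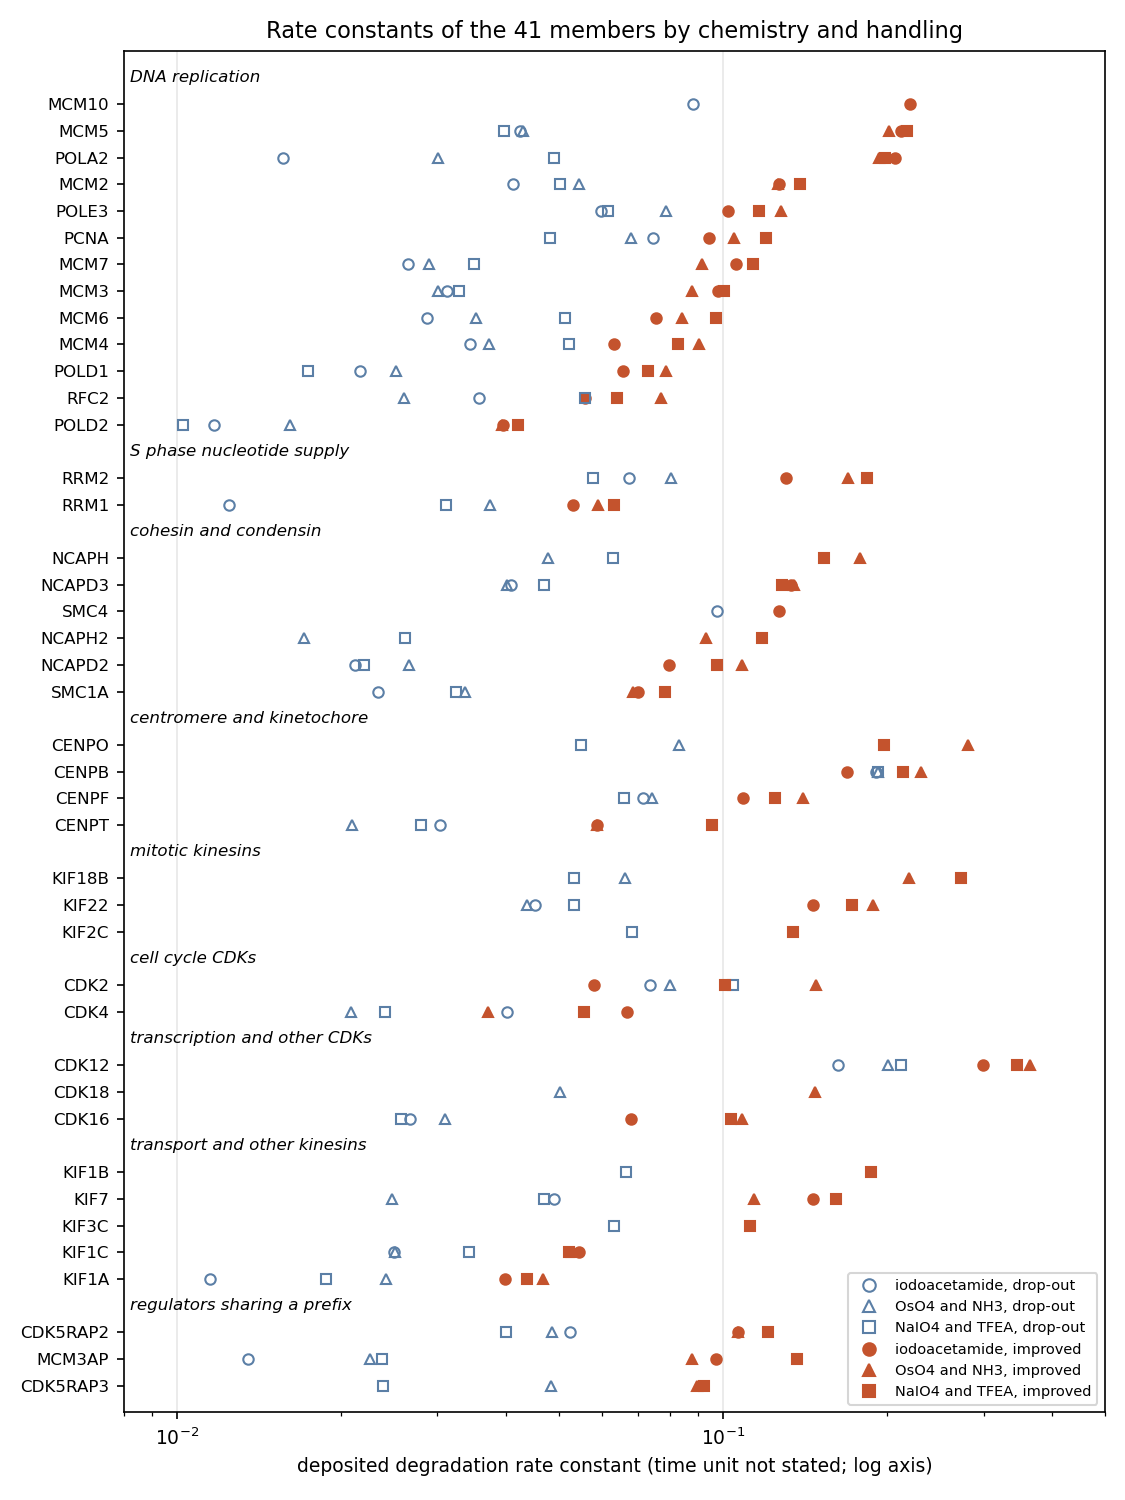
Deposited degradation rate constants (x axis, log scale, time unit not stated) of the 41 members, in rows grouped by role and sorted within a role by the IH constants. Open blue symbols are DO and filled red symbols IH, with a shape for each chemistry; the red symbols lie to the right of the blue ones in nearly every row, and CENPB, CDK2 and CDK4 are the rows where they overlap among members listed for all 3 chemistries.

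The ring-shaped MCM helicase unwinds DNA at the replication fork and is built from MCM2 to MCM7, 1 copy of each. Under IH the deposited constants of its mRNAs differed. Each is 1 value without an error, and differences between genes, here and below, were not tested. MCM5 had the largest constant of the 6 in each of the 3 chemistries, and MCM2 the next largest. MCM5 constants in the authors' deposited table were 0.0425, 0.0430 and 0.0398 under DO and 0.211, 0.202 and 0.217 under IH. The log2 changes of MCM5 in the authors' deposited table were 2.33, 2.24 and 2.47 (deposited adjusted p = 1.35e-08, 3.02e-08 and 2.65e-12). The MCM5 values of the 3 chemistries lay close together within each handling, and the lowest IH value was above the highest IH value of any other MCM2 to MCM7 subunit.

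MCM2 constants in the authors' deposited table were 0.0412, 0.0544 and 0.0503 under DO and 0.127, 0.126 and 0.138 under IH, with log2 changes of 1.63, 1.22 and 1.46 (deposited adjusted p = 5.8e-06, 8.21e-04 and 8.55e-08). MCM7, also a ring subunit, went from 0.0265, 0.0289 and 0.0351 to 0.105, 0.0913 and 0.113 in the authors' deposited table, with log2 changes of 2.00, 1.67 and 1.71 (deposited adjusted p = 3.14e-09, 4.86e-05 and 7.79e-09). MCM3 went from 0.0312, 0.0301 and 0.0328 to 0.0980, 0.0877 and 0.100 in the authors' deposited table, with log2 changes of 1.67, 1.57 and 1.63 (deposited adjusted p = 5.92e-06, 2.89e-04 and 1.97e-06). These 3 mRNAs rose in every chemistry, as MCM5 did, but to lower constants. The other two ring subunits rose in 1 chemistry each. MCM4 had IH constants of 0.0631, 0.0903 and 0.0827 in the authors' deposited table, with log2 changes of 0.91, 1.32 and 0.69 (deposited adjusted p = 0.0682, 0.0104 and 0.0786). MCM6 had IH constants of 0.0754, 0.0840 and 0.0969 in the authors' deposited table, with log2 changes of 1.49, 1.33 and 0.96 (deposited adjusted p = 0.0459, 0.0544 and 0.0642).

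The order of the ring subunits under DO changed with the chemistry. The largest DO constant was 1.60, 1.88 and 1.59 times the smallest, and belonged to MCM5, MCM2 and MCM4 in turn in the authors' deposited table. Under IH the largest was 3.35, 2.40 and 2.62 times the smallest. Without MCM5, a choice made after the values were seen, the largest was 1.55, 1.88 and 1.59 times the smallest under DO and 2.01, 1.502 and 1.67 times under IH, so that with OsO4 and NH3 the spread was then narrower under IH. MCM5 exceeded 58.5%, 52.5% and 47.2% of all transcripts under DO and 89.3%, 83.6% and 85.3% under IH. MCM10, which helps to activate the helicase and is no part of the ring, was listed with iodoacetamide only, with a constant of 0.0881 under DO and 0.220 under IH in the authors' deposited table (log2 change 1.37, deposited adjusted p = 0.0158).

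**Figure D3:**
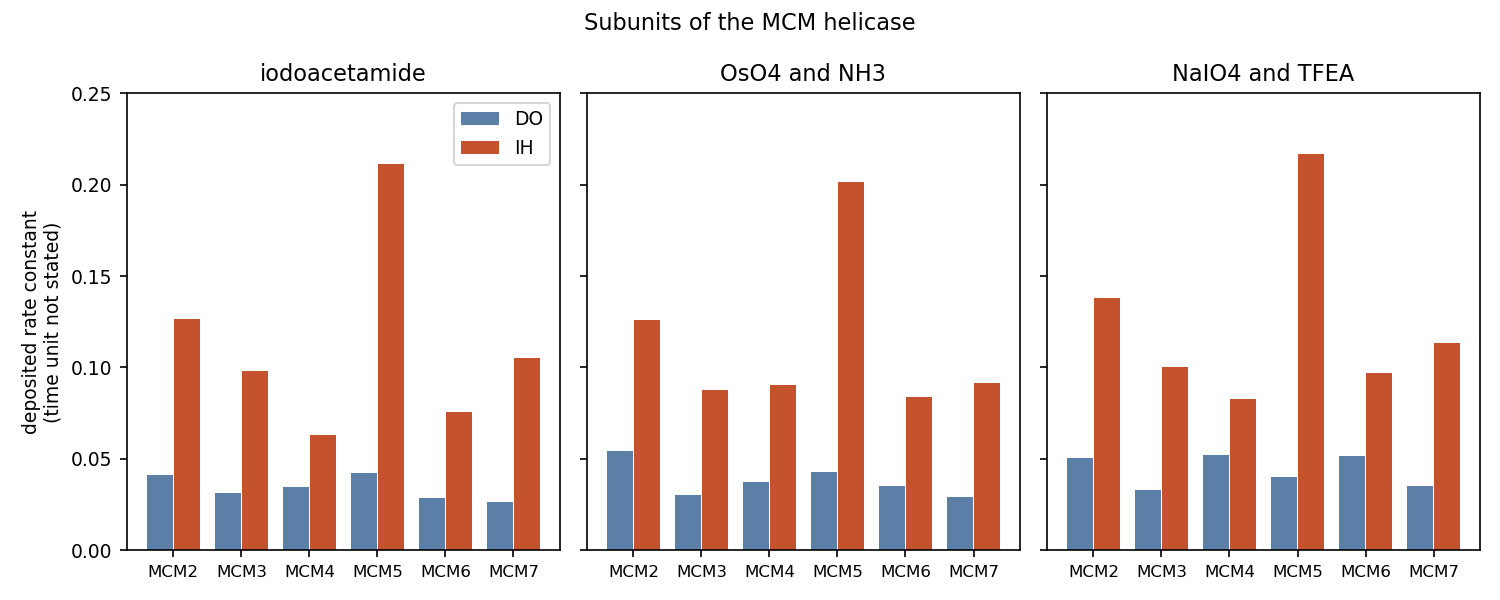
Deposited degradation rate constants (y axis, time unit not stated) of the 6 ring subunits MCM2 to MCM7 under DO (blue) and IH (red), 1 panel per chemistry, 1 deposited value per bar and no error bars because the table gives none. MCM5 has the tallest IH bar in each panel, from 0.202 to 0.217, while its DO bar, from 0.0398 to 0.0430, is the tallest of the blue bars only with iodoacetamide.

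The DNA polymerase subunits differed among themselves, with IH constants from 0.0395 to 0.206 over the 3 chemistries. POLA2, a subunit of the polymerase that starts each new strand with a primer, had constants of 0.0157, 0.0300 and 0.0490 under DO and 0.206, 0.193 and 0.198 under IH in the authors' deposited table. Its log2 changes, 3.80, 2.75 and 2.05 in the authors' deposited table (deposited adjusted p = 7.7e-08, 1.15e-05 and 5.49e-05), included the largest change of any member. The IH values of the 3 chemistries lay within 1.07 times of each other and the DO values within 3.13 times. POLA2 exceeded 18.8%, 37.3% and 56.0% of all transcripts under DO and 88.8%, 82.0% and 82.4% under IH.

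POLD2, an accessory subunit of the polymerase of the lagging strand, was among the slowest members in both handlings. Its constants in the authors' deposited table were 0.0117, 0.0161 and 0.0102 under DO and 0.0396, 0.0395 and 0.0422 under IH, with log2 changes of 1.78, 1.32 and 2.12 (deposited adjusted p = 0.0166, 0.0435 and 0.00556). POLD1, the catalytic subunit of the same enzyme, went from 0.0216, 0.0252 and 0.0174 to 0.0657, 0.0786 and 0.0729 in the authors' deposited table, with log2 changes of 1.62, 1.67 and 2.12 (deposited adjusted p = 0.0222, 0.00465 and 0.00222). Both rose in every chemistry and stayed below the median of all transcripts under IH: POLD2 exceeded 17.9%, 10.7% and 12.8% of transcripts and POLD1 38.1%, 36.4% and 32.7%. The POLA2 and POLD1 ranges did not overlap under IH, and those of POLD1 and POLD2 did not either. POLE3, a histone-fold subunit of the leading-strand polymerase that also serves in chromatin complexes, had log2 changes of 0.80, 0.74 and 0.95 in the authors' deposited table (deposited adjusted p = 0.109, 0.178 and 0.0400) and rose only in the last of the 3 chemistries.

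The mRNAs of the clamp and of RFC2, the only RFC transcript of its loader listed, rose in 1 chemistry each. PCNA constants were 0.0744, 0.0679 and 0.0482 under DO and 0.0942, 0.105 and 0.120 under IH in the authors' deposited table, with log2 changes of 0.38, 0.69 and 1.38 (deposited adjusted p = 0.515, 0.275 and 0.0144). RFC2, a subunit of the complex that opens the clamp, had 0.0357, 0.0261 and 0.0558 under DO and 0.0559, 0.0769 and 0.0641 under IH in the authors' deposited table, with log2 changes of 0.68, 1.65 and 0.25 (deposited adjusted p = 0.384, 0.0358 and 0.728). PCNA rose with NaIO4 and TFEA and RFC2 with OsO4 and NH3, and for both the DO constants varied more between chemistries than the IH constants.

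Ribonucleotide reductase makes the deoxynucleotides for S phase from a large catalytic subunit, RRM1, and a small radical-bearing subunit, RRM2. Their mRNAs had different constants in both handlings. RRM2 constants were 0.0673, 0.0803 and 0.0579 under DO and 0.131, 0.169 and 0.184 under IH in the authors' deposited table, and RRM1 constants were 0.0124, 0.0375 and 0.0311 and 0.0530, 0.0591 and 0.0633. Each RRM2 value lay above each RRM1 value of the same handling. The log2 changes of RRM2 were 0.99, 1.11 and 1.70 (deposited adjusted p = 0.0622, 0.0319 and 2.32e-04) and those of RRM1 2.30, 0.75 and 1.12 (deposited adjusted p = 0.0255, 0.315 and 0.101) in the authors' deposited table. RRM2 rose in 2 chemistries and RRM1 in 1, with iodoacetamide, where its DO constant was the lowest of the 3.

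Promoter sequence is a feature that the rule did not use and that rate constants of degradation do not measure. RefSeq promoters (GRCh38.p14, from 250 bases before to 50 after a start) were found for 37 of the 41 members, and CDK2, MCM4, MCM5 and NCAPH2 had no entry. The letters searched on both strands were the E2F sites TTTGGCGC, TTTCGCGC, TTTCCCGC and TTTGCCGC, the CHR elements TTTGAA and TTTAAA, and CCAAT; the E2F sites can overlap each other on opposite strands. Where a gene had several promoters, a match in any of them counted. An E2F site was present in 6 of the 11 DNA replication genes with a promoter (MCM2, MCM3, MCM6, MCM7, PCNA and POLA2), in 2 of 5 cohesin and condensin genes (NCAPD3 and SMC1A) and in none of the other 21, against 3.99% of all 27305 genes with a promoter. A CHR element was present in 14 of the 37 (37.8%), against 27.9% of all genes, and CCAAT in 19 (51.4%), against 39.7%. CHR was present in 1 of the 11 DNA replication genes and in 4 of 5 cohesin and condensin genes. CCAAT was present in 6 of 11 and 3 of 5. The 27305 genes were not limited to those with a rate constant, as the members were, so the sets are unlike. A match of letters is a description and not a shown binding site. The upstream stretches of MCM6, POLA2 and PCNA are given as examples with an E2F match. POLA2 rose in all 3 chemistries, with the largest change of any member except with NaIO4 and TFEA, and MCM6 and PCNA rose in 1 chemistry only. The other genes with a match, MCM2, MCM3, MCM7, NCAPD3 and SMC1A, rose in all 3. Of the members listed for all 3 chemistries, 15 of 30 did, and of the other transcripts so listed 35.9%. The other 5 replication genes with a promoter entry had no E2F match, among them POLD1 and POLD2, which rose in all 3 chemistries, POLE3 and RFC2, which rose in 1, and MCM10, which rose in the 1 that listed it. Outside replication, NCAPD2, KIF22, KIF7, MCM3AP, CDK12 and CDK16 had a promoter entry without an E2F match and also rose in all 3. The remaining members with an entry and no match did not, or were not listed for all 3. Whether an E2F match goes with the change between handlings was not tested. The stretches are written 5′ to 3′ on the strand of the gene, end before the start of transcription, and have the E2F matches in capitals.
MCM6 (GRCh38.p14, chr2:135876494-135876613, minus strand, positions -170 to -51 from the start): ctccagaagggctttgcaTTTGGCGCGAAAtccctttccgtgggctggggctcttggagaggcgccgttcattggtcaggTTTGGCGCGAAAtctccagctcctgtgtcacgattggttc
POLA2 (GRCh38.p14, chr11:65261852-65261961, plus strand, positions -110 to -1 from the start): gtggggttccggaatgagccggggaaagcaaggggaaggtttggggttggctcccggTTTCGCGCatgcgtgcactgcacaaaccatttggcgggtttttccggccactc
PCNA (GRCh38.p14, chr20:5126633-5126742, minus strand, positions -120 to -11 from the start): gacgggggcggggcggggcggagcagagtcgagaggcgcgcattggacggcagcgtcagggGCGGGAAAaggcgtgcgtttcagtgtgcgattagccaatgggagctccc
In MCM6 each capital block holds an overlapping pair of matches on opposite strands, and in PCNA the match is on the opposite strand and is printed as its reverse complement.

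Of the condensin and cohesin mRNAs 3 of 4 rose with iodoacetamide, 5 of 5 with OsO4 and NH3, and 4 of 5 with NaIO4 and TFEA, beside 48.9%, 48.1% and 52.6% of all transcripts. NCAPD2, a condensin I subunit, went from 0.0212, 0.0266 and 0.0220 to 0.0797, 0.108 and 0.0976 in the authors' deposited table, with log2 changes of 1.93, 2.05 and 2.18 (deposited adjusted p = 4.15e-05, 9.9e-06 and 1.99e-07). NCAPD3, the matching subunit of condensin II, went from 0.0410, 0.0403 and 0.0471 to 0.133, 0.135 and 0.128 in the authors' deposited table, with log2 changes of 1.75, 1.81 and 1.51 (deposited adjusted p = 0.00136, 0.00377 and 0.00514). Both rose in all 3 chemistries, and each NCAPD3 constant lay above each NCAPD2 constant within a handling. The kleisin subunits NCAPH (condensin I) and NCAPH2 (condensin II) were listed for OsO4 with NH3 and for NaIO4 with TFEA. NCAPH constants were 0.0477 and 0.0629 under DO and 0.178 and 0.153 under IH in the authors' deposited table, with log2 changes of 2.00 and 1.36 (deposited adjusted p = 0.0172 and 0.0545). NCAPH2 constants were 0.0171 and 0.0262 and 0.0930 and 0.118 in the authors' deposited table, with log2 changes of 2.52 and 2.22 (deposited adjusted p = 0.00200 and 0.00109). Of the kleisins, the condensin I mRNA had the larger constants, the opposite order to NCAPD2 and NCAPD3.

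SMC1A, the cohesin ATPase, had constants of 0.0233, 0.0336 and 0.0325 under DO and 0.0699, 0.0686 and 0.0784 under IH in the authors' deposited table and rose in all 3 chemistries by log2 changes of 1.60, 1.05 and 1.29 (deposited adjusted p = 1.47e-05, 0.0156 and 3.15e-05). SMC4, an ATPase subunit of both condensins, was listed with iodoacetamide only, at 0.0974 and 0.127 in the authors' deposited table (log2 change 0.44, deposited adjusted p = 0.440). SMC4 thus had the largest DO constant of this group.

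Among the centromere and kinetochore mRNAs, CENPB stood at the high end of the table in both handlings. CENPB, which binds a repeat motif of centromeric satellite DNA, had constants of 0.190, 0.192 and 0.192 under DO and 0.168, 0.230 and 0.213 under IH in the authors' deposited table. Its log2 changes of -0.18, 0.26 and 0.15 (deposited adjusted p = 0.672, 0.516 and 0.712) in the authors' deposited table were among the smallest of the members, and the handlings overlapped. CENPB exceeded 95.4%, 93.2% and 93.0% of all transcripts under DO and 83.6%, 88.3% and 84.8% under IH. CENPF, a large protein of the mitotic kinetochore, went from 0.0715, 0.0741 and 0.0660 to 0.109, 0.140 and 0.124 in the authors' deposited table, with log2 changes of 0.65, 0.96 and 0.95 (deposited adjusted p = 0.165, 0.0649 and 0.0257). CENPT, which links centromeric chromatin to the outer kinetochore, went from 0.0303, 0.0210 and 0.0279 to 0.0588, 0.0589 and 0.0953 in the authors' deposited table, with log2 changes of 1.0, 1.61 and 1.87 (deposited adjusted p = 0.191, 0.0745 and 0.0144). CENPF and CENPT rose in 1 chemistry each, with NaIO4 and TFEA. CENPO, a subunit of the inner kinetochore, was listed for OsO4 with NH3 and for NaIO4 with TFEA and rose in both, from 0.0832 and 0.0549 to 0.281 and 0.198 in the authors' deposited table (log2 changes 1.81 and 1.91, deposited adjusted p = 0.00345 and 0.00244).

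The IH constants of kinesins with a role in mitosis overlapped those of the other kinesins. KIF22, which pushes chromosome arms away from the poles, went from 0.0452, 0.0438 and 0.0534 to 0.146, 0.188 and 0.172 in the authors' deposited table, with log2 changes of 1.71, 2.13 and 1.71 (deposited adjusted p = 2.8e-04, 4.3e-05 and 3.57e-05). KIF18B, which shortens astral microtubules, was listed for OsO4 with NH3 and for NaIO4 with TFEA, from 0.0662 and 0.0535 to 0.219 and 0.273 in the authors' deposited table (log2 changes 1.79 and 2.41, deposited adjusted p = 0.00598 and 2.87e-05). KIF2C, a microtubule depolymerase at the centromere, was listed with NaIO4 and TFEA only and had a log2 change of 1.04 in the authors' deposited table (constants 0.0683 and 0.134, deposited adjusted p = 0.0823). KIF22 and KIF18B rose wherever they were listed.

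KIF1A, a motor of synaptic vesicle precursors, went from 0.0115, 0.0242 and 0.0187 to 0.0399, 0.0469 and 0.0438 in the authors' deposited table, with log2 changes of 1.83, 1.0 and 1.27 (deposited adjusted p = 0.0302, 0.132 and 0.0699). KIF1C, a related cargo motor, went from 0.0250, 0.0251 and 0.0342 to 0.0544, 0.0528 and 0.0523 in the authors' deposited table, with log2 changes of 1.13, 1.09 and 0.61 (deposited adjusted p = 0.0394, 0.0320 and 0.151). KIF1A and KIF1C were the slowest of the 8 kinesins under IH, at 0.0544 or less. The remaining cargo and ciliary kinesins had larger constants. KIF7, which acts in the primary cilium, had IH constants of 0.146, 0.114 and 0.161 and rose in all 3 chemistries by log2 changes of 1.62, 2.37 and 1.82 in the authors' deposited table (deposited adjusted p = 0.0132, 0.0170 and 6.97e-04). KIF1B and KIF3C, both cargo motors, were listed with NaIO4 and TFEA only, with IH constants of 0.186 and 0.112 in the authors' deposited table, and KIF1B rose (log2 change 1.54, deposited adjusted p = 0.00405), while the KIF3C log2 change was 0.90 (deposited adjusted p = 0.250).

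Under IH the cyclin-dependent kinases held the fastest and some of the slowest members. CDK12, which phosphorylates RNA polymerase II and is no cell cycle kinase, had constants of 0.163, 0.201 and 0.212 under DO and 0.299, 0.365 and 0.345 under IH in the authors' deposited table. Each CDK12 value under IH was above that of every other member, and it exceeded 95.3%, 96.4% and 95.0% of all transcripts. Its log2 changes in the authors' deposited table were 0.91, 0.89 and 0.72 (deposited adjusted p = 0.0257, 0.0375 and 0.0318), below the median of all transcripts in each chemistry. CDK4, the G1 kinase, had 0.0402, 0.0209 and 0.0240 under DO and 0.0667, 0.0371 and 0.0557 under IH in the authors' deposited table, with log2 changes of 0.74, 0.86 and 1.24 (deposited adjusted p = 0.153, 0.205 and 0.0261). CDK2, the S phase kinase, had 0.0735, 0.0798 and 0.104 under DO and 0.0581, 0.148 and 0.101 under IH in the authors' deposited table, with log2 changes of -0.33, 0.94 and -0.021 (deposited adjusted p = 0.659, 0.125 and 0.975). CDK2 rose in none of the 3 chemistries and its IH constants spread more widely between chemistries, 2.54 times, than those of any other member. CDK16, a kinase of the same family with roles outside the cell cycle, rose in all 3 chemistries, from 0.0267, 0.0310 and 0.0257 to 0.0680, 0.108 and 0.103 in the authors' deposited table (log2 changes 1.36, 1.83 and 2.03, deposited adjusted p = 0.00210, 1.32e-04 and 5.48e-07). CDK18 was listed with OsO4 and NH3 only and rose, from 0.0504 to 0.148 in the authors' deposited table (log2 change 1.61, deposited adjusted p = 0.0333).

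Of the proteins named for a partner, MCM3AP, a scaffold of nuclear mRNA export, had one of the largest changes of any member. Its constants were 0.0135, 0.0226 and 0.0238 under DO and 0.0971, 0.0876 and 0.137 under IH in the authors' deposited table, with log2 changes of 2.94, 2.02 and 2.59 (deposited adjusted p = 4.92e-06, 0.00134 and 4.4e-06). CDK5RAP2, a centrosome scaffold, went from 0.0526, 0.0487 and 0.0401 to 0.107, 0.106 and 0.121 in the authors' deposited table, with log2 changes of 1.08, 1.23 and 1.67 (deposited adjusted p = 0.0605, 0.107 and 0.00484). CDK5RAP3 was listed for OsO4 with NH3 and for NaIO4 with TFEA, with log2 changes of 0.97 and 2.11 in the authors' deposited table (constants 0.0483 and 0.0238 under DO and 0.0895 and 0.0925 under IH, deposited adjusted p = 0.192 and 0.0177).

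**Figure D4:**
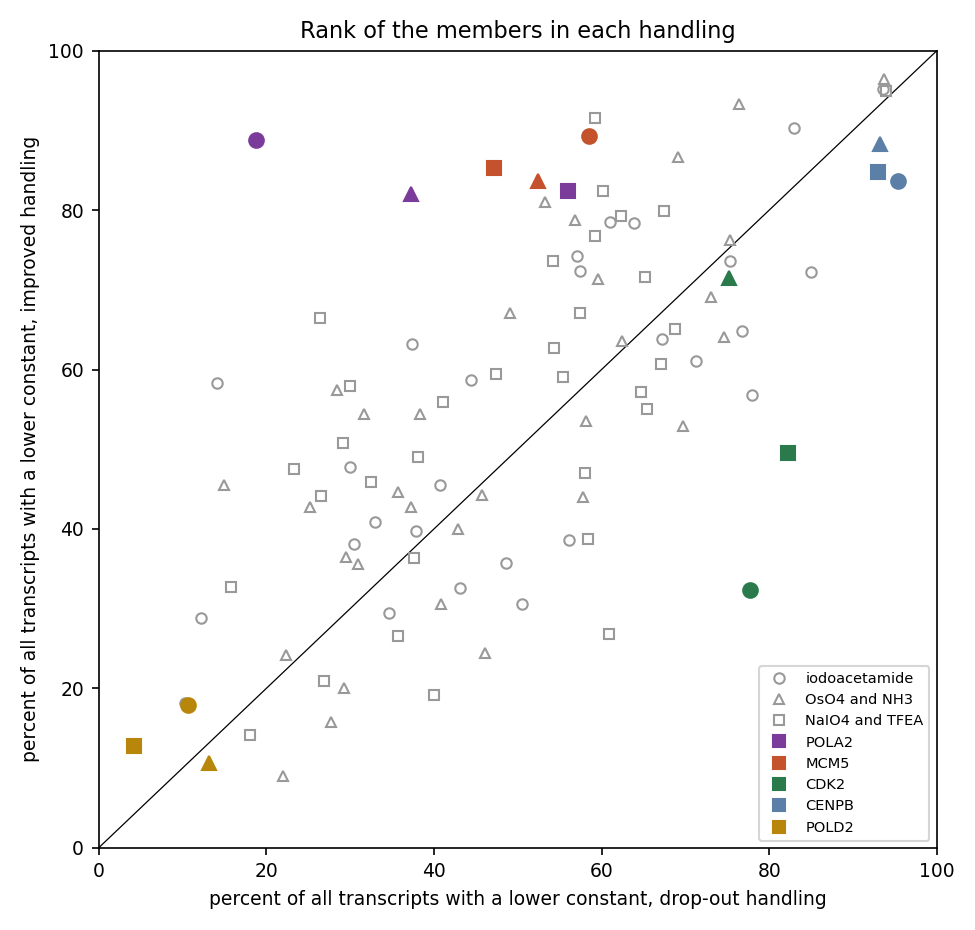
Percent of all transcripts of a chemistry with a lower deposited rate constant under DO (x axis) and under IH (y axis), 1 symbol per member and chemistry, with 5 members coloured and the diagonal marking equal rank. POLA2 and MCM5 lie above the diagonal in each chemistry, reaching 82.0% to 89.3% under IH, CENPB and CDK2 lie below it, and POLD2 stays at the low end.

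By prefix, the condensin and cohesin names had median log2 changes of 1.68, 2.01 and 1.51, the MCM names 1.65, 1.57 and 1.63, the POL names 1.70, 1.49 and 2.08 and the KIF names 1.67, 1.79 and 1.41 in the authors' deposited table, all above the median of all transcripts, 1.14, 1.19 and 1.18. The CENP names had 0.65, 1.29 and 1.41, and the CDK names 0.91, 0.97 and 1.45. The CENP and CDK medians lay below that of all transcripts with iodoacetamide, and the CDK median also with OsO4 and NH3. These groups hold 3 to 8 transcripts in a chemistry, so a median can rest on a single gene. The RRM, RFC and PCNA names, with 2, 1 and 1 transcripts, are given by gene above. Their medians lay above that of all transcripts in some chemistries and below it in others.

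Other genes of DNA replication and chromosome segregation do not carry these prefixes. Of a list of 70 such genes, 32 were in the authors' deposited table. With iodoacetamide 14 of 26 rose, with OsO4 and NH3 15 of 30 and with NaIO4 and TFEA 18 of 27. The shares over all transcripts were 48.9%, 48.1% and 52.6%. None of these genes fell with an adjusted p under 0.05, beside 1.44%, 0.44% and 0.68% of all transcripts. Their median log2 changes in the authors' deposited table were 1.42, 1.13 and 1.36, of which the second lay below the median of all transcripts, 1.19. Their median IH constants in the authors' deposited table were 0.105, 0.117 and 0.121, against 0.0976, 0.107 and 0.117 for the members. Under DO their medians were 0.0439, 0.0561 and 0.0746, against 0.0379, 0.0374 and 0.0476 for the members. The median gene of the list exceeded 59.7%, 63.4% and 71.8% of all transcripts under DO and 62.8%, 59.3% and 59.3% under IH.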

How the data were processed

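The authors deposited a table of bakR degradation rate constants under either handling, with the log2 fold change from one to the other and an adjusted p-value, as the labels describe it. It names the chemistries SLAM, TUC and TimeLapse, read here as iodoacetamide, OsO4 with NH3, and NaIO4 with TFEA. The deposited log2 values and p-values were used as given. Their direction, IH over DO, was found from the constants, since each deposited log2 value differed by at most 0.352 from that of their ratio. The authors also deposited counts of reads per gene; these gave the depth of the 18 libraries listed there (HISAT-3N alignment, setting D), of whose reads 17.5% to 41.5% named no gene. The deposited mismatch number per read, a value of another kind, gave the share of reads with T-to-C mismatches. The counts name genes by 34139 identifiers, and none could be paired with a symbol through the reference list, so the planned tests of the members' reads were not run. The remaining 10 of the 28 samples were not analysed here. Per the submitters' processing notes, the build was GRCh38 and the tools included cutadapt, HISAT2, STAR, Picard and HTSeq. Versions, the read minimum and the p-value adjustment are not given in the sources used here.

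Counts, medians, percentiles (percent of all transcripts of a chemistry with a lower constant) and Spearman correlations were computed with pandas 2.3.3 in Python 3.11.15. The functions for counts of risen transcripts, percentiles and correlations were checked on made-up inputs with known answers. The members and lists were chosen with earlier results of these data known. Genes were named by a rule: the extremes of each role by IH constant, those of the largest mean change among the ones that rose in all 3 chemistries, and those of the smallest change. The remaining members are named to account for all 41. Alternatives were a threshold of 0.01, members with a replication or segregation role only, and transcripts listed for all 3 chemistries only.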

Additional observations from a re-analysis of the deposited data

Results flagged for a closer look

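CDK2 and CENPB had deposited log2 changes of opposite sign between chemistries. Of the 30 members listed for all 3 chemistries, 93.3% had log2 changes above 0 in all 3, beside 86.9% of the 1441 others. For CDK2 the authors' deposited table gave -0.33 for iodoacetamide, 0.94 after OsO4 and NH3 treatment, and -0.021 after NaIO4 and TFEA. For CENPB it gave -0.18, 0.26 and 0.15 in the same order. The table gives 1 value per chemistry and no error, so these differences between chemistries were not tested, and none of the 6 values had an adjusted p under 0.05 (0.125 to 0.975).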

How the results depend on the processing

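At a deposited adjusted p under 0.01, 11 of 32 members rose with iodoacetamide (32.4% of all transcripts), 14 of 36 with OsO4 and NH3 (27.0%) and 20 of 38 with NaIO4 and TFEA (33.5%); the first count, against 20 at 0.05, and the second, against 24, moved by over 1.5 times. With transcripts listed for all 3 chemistries only, 19, 19 and 22 of 30 members rose, beside 50.2%, 52.3% and 57.5% of the 1471 transcripts. The members' median log2 change ranged from 1.32 to 1.57 over the alternatives and chemistries. With transcripts listed for all 3 chemistries only, it went from 1.43 to 1.55 with iodoacetamide and from 1.45 to 1.32 with OsO4 and NH3. With replication and segregation roles only, it went from 1.45 to 1.57 with OsO4 and NH3. These moves were larger than the spread of the main medians between chemistries. No paired analysis was possible because the table gives no values per replicate. The tests of converted shares and exonic counts of the members, with their alternatives, were not run. How many reads lie behind a constant is not known.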

Other observations

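Members with a large constant under DO tended to change less. Because the log2 change contains the DO constant of its own chemistry, the DO constant of one chemistry was set against the log2 change of another. Over the 6 such pairs Spearman's rho across the 30 members listed for all 3 chemistries was -0.57 to -0.30, and across the 1441 other transcripts -0.50 to -0.41, in the authors' deposited table. These are descriptions across genes, which are not independent replicates. Crossing the chemistries does not remove the overlap. The DO constants of different chemistries were themselves correlated, with rho of 0.76 to 0.80 across the members and 0.90 to 0.92 across the others. A negative rho is thus partly built in, and these values cannot separate that part from a tendency of the genes.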
